A study of Mus musculus with 64 samples.

Results

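The cells described here are KLRG1-negative, CD4-negative cells of innate lymphoid phenotype from the colon of mice with T cell transfer, chosen by their antibody counts. A barcode was a member when CD90.2 was high and KLRG1, CD3, CD4, CD11b, CD11c and CD64 were all low. The gates were set on the centred log ratio (CLR), the natural log of an antibody count plus 1 minus the mean of the same quantity over the cell's 11 antibodies. The cuts were above 2.035 for CD90.2, and at or below -0.589 for KLRG1, -0.155 for CD3, 0.652 for CD4, 0.712 for CD11b, 0.497 for CD11c and 0.105 for CD64. Of 130442 barcodes kept in 9 libraries, 8486 were members, which is 6.51%. The levels of these 7 proteins chose the members, so they are given as a description without a test.

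Innate lymphoid cells are tissue lymphocytes that carry no rearranged antigen receptor and respond to cytokines from neighbouring cells. In mice they carry CD90.2 (Thy-1), and most carry CD127, the alpha chain of the receptor for interleukin 7. In the mouse gut KLRG1, an inhibitory receptor that binds cadherins, is best known on group 2 innate lymphoid cells and is largely missing from group 3 cells, of which a subset carries CD4. IL-12p40 is a subunit that IL-12 and IL-23 share, and these cytokines act on group 1 and group 3 innate lymphoid cells and on T cells.

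The study followed T cell transfer colitis, in which naive CD45RBhi CD4 T cells are given to mice without lymphocytes of their own and the colon becomes inflamed over weeks. The treated group was 1 library from SCID mice with CD45RBhi transfer and anti-IL-12p40 from day 10, collected at week 7. The untreated groups were SCID mice with CD45RBhi transfer and no antibody treatment, with 1 library for each of weeks 0, 1, 2, 3, 4, 5, 6 and 7. The labels of these libraries give the strain only as SCID, and they give the transfer for week 0 as well. SCID mice lack functional T and B cells of their own, while they keep innate lymphoid and natural killer cells. Each library held EpCAM-negative, CD45-positive cells sorted from the pooled colons of 3 animals, and the spread between pools of a week is unknown. Age and sex are not given in the sources used here, and 55 of the series' 64 samples were not analysed here.

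The libraries held 11415 to 20977 kept barcodes, and library pairs shared 30 to 110 barcodes. Members that shared a barcode with another library numbered 271, and 5 barcodes were members in 2 libraries. The week 6 library stood apart, because 14.8% of its barcodes were CD3-negative cells with both CD4 and CD90.2. Their CD3 lay close under the cut, with a median CLR of -0.38 (quartiles -0.56 and -0.25), and CD3+CD4+ cells of that library had a median CD3 CLR of 0.34, against 0.74 to 1.36 in the other libraries with at least 50 such cells. Whether these are T cells with low CD3 was not tested. The panel had no antibody that separates natural killer cells from other innate lymphocytes, so the members can hold both.

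Members were common in the first weeks and scarce in the last, and the treated library held many more of them than the untreated library of the same week. From week 0 to week 7 their share of all barcodes was 20.0%, 16.8%, 6.32%, 3.19%, 0.542%, 1.18%, 0.902% and 0.596%. These shares stand for 3351, 2114, 1325, 401, 97, 164, 103 and 71 cells. The 4 earliest weeks lay above the 4 latest, with the lowest share at week 4. Spearman's rank correlation with week was -0.857 over the 8 untreated libraries (two-sided exact permutation p = 0.0107, adjusted p = 0.075 over 7 trends), which misses the threshold of 0.05. Pearson's r was -0.870 (exact permutation p = 0.000595, adjusted p = 0.00417). Without weeks 0 and 7 Spearman's coefficient was -0.829 (exact p = 0.0583) and r was -0.835 (exact p = 0.0139). Without week 4 alone the rank correlation was -1.0 (adjusted exact permutation p = 0.00278), and without week 7 alone it was -0.893 (adjusted exact permutation p = 0.0287). After thinning cells to 200 counts it was -0.929 (adjusted exact permutation p = 0.0156). Thinning, here and below, left out cells under 200 counts, such as 268 of the 2114 members at week 1. Weeks 4 and 7 are named because their omission passed 0.05, and week 4 held the lowest share. The range over all omissions of 1 library is in the last section.

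CD3-positive cells made up 0.604%, 7.15% and 41.3% of barcodes in the first 3 libraries and 55.3% to 88.1% from week 3 on. A share cannot tell fewer members from more cells of other kinds. Among CD3-negative barcodes the members' share was 20.1%, 18.1%, 10.8%, 8.30%, 1.21%, 4.16%, 2.05% and 4.99% from week 0 to week 7. With CD3-positive cells left out of the total, the 4 latest weeks were still below the 4 earliest. Cells close under the CD3 cut stay in this total. At week 6 it held 5031 barcodes, of which 1695 were CD3-negative cells with CD4 and CD90.2, and their part in the share was not tested. The rank correlation was -0.786 (exact permutation p = 0.0279, adjusted p = 0.0977) and r was -0.869 (exact permutation p = 0.00561, adjusted p = 0.0196). Without weeks 0 and 7 Spearman's coefficient was -0.829 and r was -0.897 (exact p = 0.0583 and 0.0167). Without week 4 or without week 7 alone, named because their omission passed, the rank correlation was -0.893 (adjusted exact permutation p = 0.0431 and 0.0287).

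At week 7 members were 6.91% of the treated library (860 cells, exact 95% interval 6.48% to 7.37%) and 0.596% of the untreated library (71 cells, interval 0.466% to 0.752%), a ratio of 11.6. The interval bounds place the ratio between 8.62 and 15.8, and they cover counting error only. Among CD3-negative barcodes the share was 23.3% in the treated library and 4.99% in the untreated one, a ratio of 4.67. Per 100 CD3-negative, CD90.2-negative myeloid cells there were 155.5 members in the treated library and 8.64 in the untreated one. The treated share of all barcodes lay above those of untreated weeks 2 to 7 and below those of weeks 0 and 1. With thresholds fitted in each library the ratio was 26.3 (110 treated and 4 untreated members), and it no longer met the rule for a large ratio, which asks for 1.5 or more, separate intervals and a treated share outside the range of untreated weeks 5 to 7. With 1 library on each side this comparison has no replicate check and no test, and treatment cannot be told apart from other differences between the pools.

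**Figure D1:**
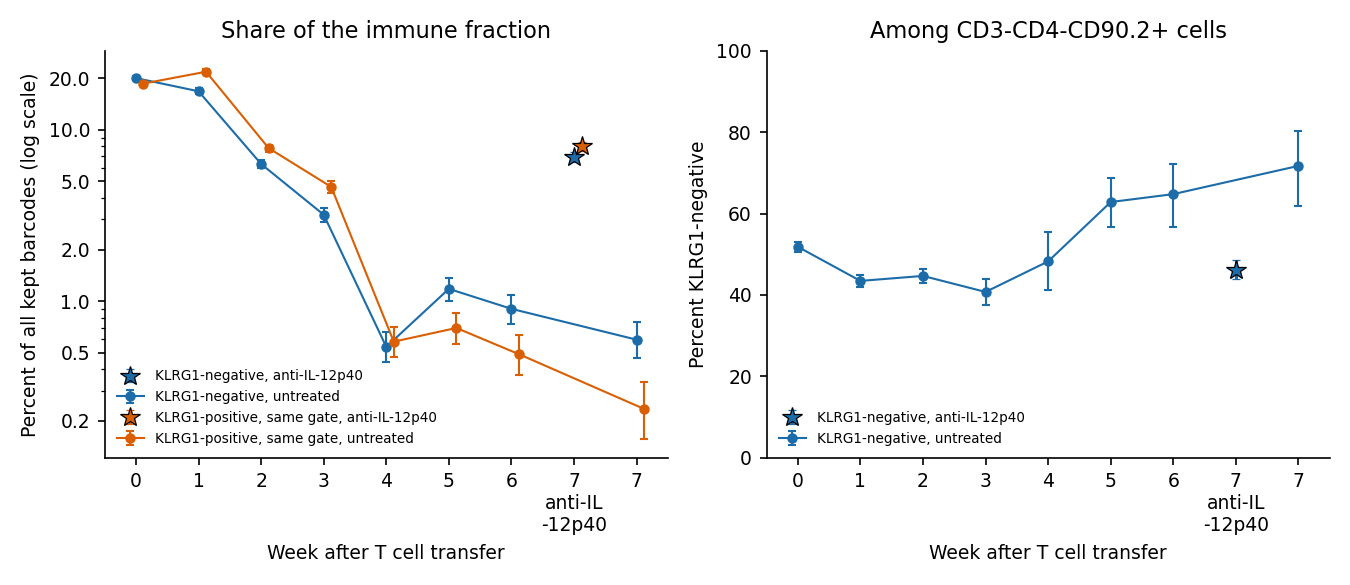
Left, share of members (KLRG1-negative) and of KLRG1-positive cells of the same gate by week, in percent of kept barcodes on a log axis, and right, members in percent of both together, with exact 95% binomial intervals as error bars. The star marks the anti-IL-12p40 library at week 7, where members were 6.91% of barcodes, against 0.596% in the untreated library.

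The members' nearest neighbours are the KLRG1-positive cells that pass the same gates for the other 6 proteins. These were 18.6%, 21.8%, 7.82%, 4.64%, 0.581%, 0.698%, 0.491% and 0.235% of barcodes from week 0 to week 7. Members made up 51.8%, 43.5%, 44.7%, 40.8%, 48.3%, 62.8%, 64.8% and 71.7% of both populations together over the same weeks. KLRG1-positive cells outnumbered members at weeks 1 to 4, and members outnumbered them at week 0 and at weeks 5 to 7. The trend of the members' share of the gate had a rank correlation of 0.690 (exact permutation p = 0.0694, adjusted p = 0.121) and an r of 0.784 (exact permutation p = 0.0275, adjusted p = 0.0482). Without weeks 0 and 7 Spearman's coefficient was 0.829 and r was 0.868 (exact p = 0.0583 and 0.0333), and with thresholds fitted in each library Spearman's coefficient over all 8 was 0.0952.

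In the treated library members were 46.2% of the gate (860 of 1860 cells), against 71.7% in the untreated library of week 7 (71 of 99 cells). KLRG1-positive cells were 8.04% of treated barcodes and 0.235% of untreated ones, a ratio of 34.2. CD3-negative cells with CD4 and CD90.2 were 2.33% of treated barcodes and 1.79% of untreated ones, a ratio of 1.30. The CD4-positive cells of both libraries were not alike in CD3, with a median CLR of -0.71 (5 counts) in the treated library and -0.33 (14 counts) in the untreated one, close under the cut of -0.155. The part of T cells with low CD3 in this ratio was not tested.

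**Figure D2:**
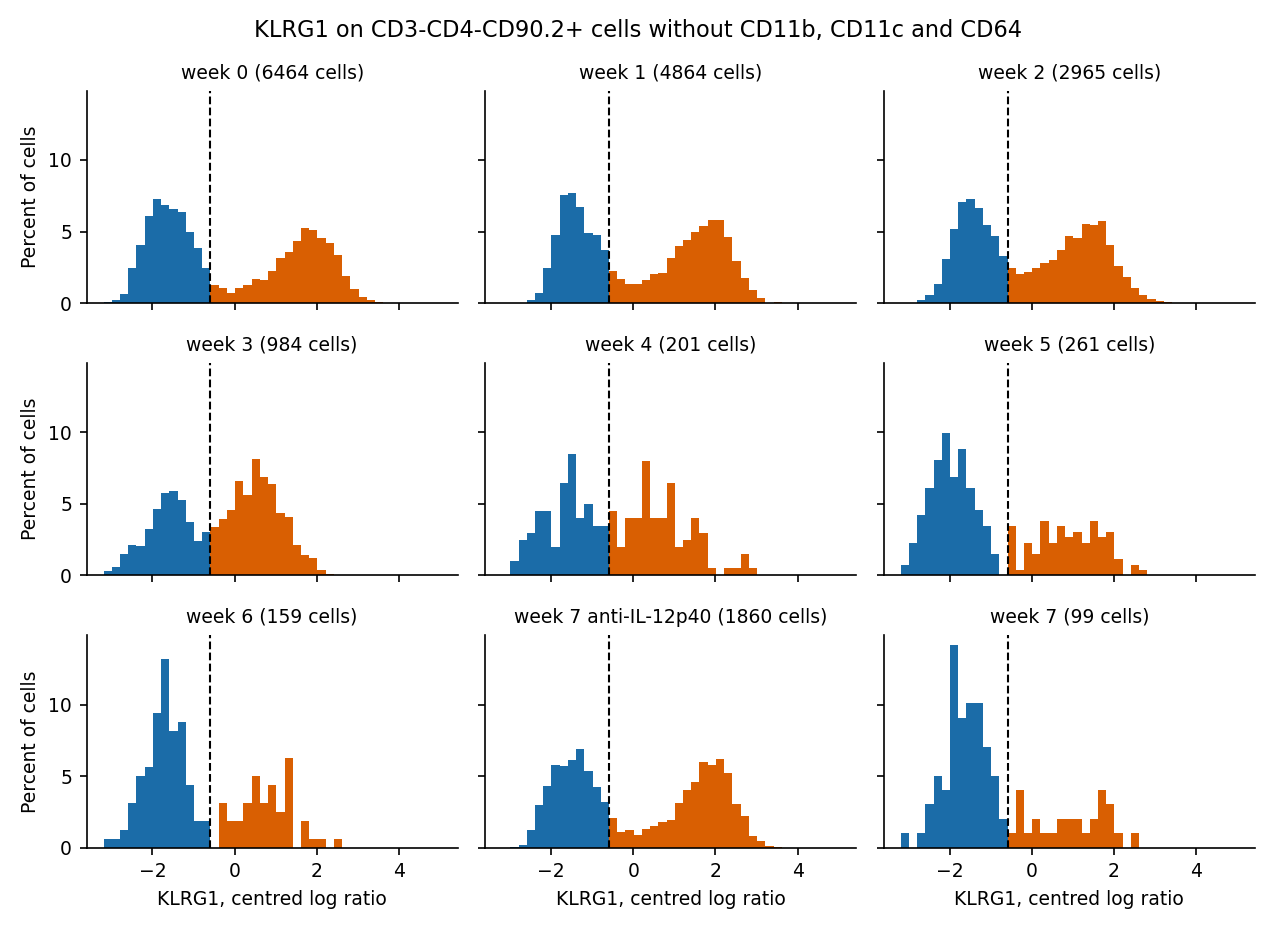
Distribution of KLRG1, as centred log ratio, over cells that pass the gates for the other 6 proteins, in percent of those cells per library. The dashed line is the KLRG1 cut, with members in blue to its left and KLRG1-positive cells in orange to its right. Some cells lie at the cut in every library, and members within 0.25 of it were 9.07% of members in the treated library, and 0.610% at week 5 to 11.3% at week 1 in the untreated ones.

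By the proteins that chose them, members carried CD90.2, a glycoprotein of lymphocyte surfaces, at median counts of 897, 416, 337, 552, 378, 513.5, 526 and 682 from week 0 to week 7. The treated library had 905 counts. KLRG1 stood at a median of 0 to 3 counts in members of every library, against 26 to 76 in KLRG1-positive cells. CD3, the signalling part of the T cell receptor, stood at medians of 1 to 7 counts, and CD4, the coreceptor of helper T cells, at 1 to 11. The CD4 median was highest at weeks 5 and 6, at 10 and 11 counts. The gates required this bright CD90.2 signal on low lymphoid lineage signals in every library.

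Some members lay close to a gate. Within 0.25 CLR units of the CD90.2 cut there were 220 members, with a median of 62 CD90.2 counts, and 235 cells just outside that met every other gate, with 44 counts. Within the same distance of the KLRG1 cut there were 719 members with a median of 2 KLRG1 counts and 427 cells outside with 3 counts. At the CD4 cut there were 92 members with 21 counts and 68 cells outside with 31, and at the CD3 cut 520 members with 4 counts and 209 cells outside with 5. For KLRG1 and CD3 the 2 sides of the cut thus differed by 1 count. At the myeloid cuts there were 279 members inside and 105 cells outside for CD11b (13 and 16 counts), 493 and 365 for CD11c (11 and 15), and 587 and 238 for CD64 (7 and 9). The share of members within 0.25 of any cut was 36.7% in the treated library, and 24.6% at week 0 to 51.5% at week 6 in the untreated ones. Members at least 0.25 inside every cut were 4.37% of treated barcodes and 0.395% of untreated ones at week 7, and 15.1% at week 0.

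CD127, which the gates did not use, was the protein that set members apart from myeloid cells under every measure tried. The median CD127 count in members was 15, 8, 5, 15, 9, 10, 8 and 11 from week 0 to week 7, and 13 in the treated library. In CD3-negative, CD90.2-negative myeloid cells it was 4, 2, 1, 13, 2, 5, 6 and 8 over the same weeks, and 4 in the treated library. Members stood above myeloid cells in all 9 libraries, by 2 counts at week 3, where the myeloid count was highest. On the CLR scale the difference in medians averaged 1.48 ± 0.326 (SD, n = 8 untreated libraries), with members higher in 8 of 8 (two-sided exact sign-flip permutation p = 0.00781, the smallest possible; adjusted p = 0.0227 over 16 differences).

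The CLR of each ungated protein is coupled to the gated ones, because all 11 antibodies enter the cell's mean. On the natural log of the count plus 1, with no centring, CD127 in members exceeded that in myeloid cells by 0.73 (adjusted exact permutation p = 0.0312). Of the 16 differences over 4 proteins and 4 populations, 12 passed on the CLR scale, 4 with no centring, and 7 when the CLR was centred on the 4 ungated proteins. The 4 with no centring were all differences from myeloid cells. CD103, Ly-6C and Ly-6G were lower in members there (-1.17, -0.872 and -1.01, adjusted exact permutation p = 0.0312 for each), but did not pass on the CLR scale. The difference in CD127 from myeloid cells passed in each of these forms, and also after thinning cells to 200 counts (1.02, adjusted exact permutation p = 0.0227).

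Against KLRG1-positive cells of the same gate, CD127 was higher in members by 0.35 ± 0.16 CLR units (7 of 7 libraries, exact permutation p = 0.0156, adjusted p = 0.0227). With no centring the difference was 0.10, and its adjusted exact permutation p was 0.0714. After thinning cells to 200 counts, the CLR difference was 0.23 (adjusted exact permutation p = 0.0417). Ly-6C and Ly-6G were also higher in members on the CLR scale, by 0.29 and 0.34 (7 of 7 libraries, adjusted exact permutation p = 0.0227 for both), while CD103 was lower. With no centring the differences were 0.04 for Ly-6C and 0.05 for Ly-6G. A higher CLR than in KLRG1-positive cells was thus not particular to CD127. The median CD127 counts of KLRG1-positive cells were 13, 7, 5, 13, 7.5, 9, 7.5 and 9 from week 0 to week 7, and 9 in the treated library. Members thus had more counts in 7 of the 8 untreated libraries and the same median of 5 at week 2, but these counts are not matched for depth. Thinned members averaged fewer CD127 counts at weeks 4, 6 and 7 (3.03, 1.97 and 3.52, against 3.27, 2.50 and 4.29 in KLRG1-positive cells). At weeks 0 to 3 and at week 5 thinned members averaged more. Week 7, with 28 KLRG1-positive cells, did not enter the sign-flip test, which took at least 50 cells.

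Transferred T cells also carried CD127. CD3+CD4+ cells had medians of 4, 2, 10, 8, 10, 9 and 13 counts from week 1 to week 7 and 9 in the treated library, so members had fewer counts than T cells at weeks 6 and 7 and the same at week 5. The CLR difference from T cells was 0.78 ± 0.39 (7 of 7 libraries, exact permutation p = 0.0156, adjusted p = 0.0227), but 0.21 with no centring (adjusted exact permutation p = 0.333). Against CD3-negative cells with CD4 and CD90.2 it was 0.34 ± 0.17 on the CLR scale (8 of 8 libraries, adjusted exact permutation p = 0.0227) and -0.20 with no centring (adjusted exact permutation p = 0.0781). From week 3 on the median CD3 CLR of those cells in untreated libraries lay between -0.384 and -0.279, close under the CD3 cut. After thinning cells to 200 counts, the CLR difference was 0.64 from T cells and 0.31 from those CD4-positive cells. Both had an adjusted exact permutation p of 0.0227. Centred on the ungated proteins, the difference was 0.17 and 0.0195 (adjusted exact permutation p = 0.225 and 0.884). At weeks 6 and 7 members had median totals of 782 and 827 counts, and T cells 1482 and 1318.5. Thinned members averaged 1.97 and 3.52 CD127 counts, and thinned T cells 1.28 and 2.22. A CD127 level above that of these lymphocytes therefore depended on the scale and the centring.

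**Figure D3:**
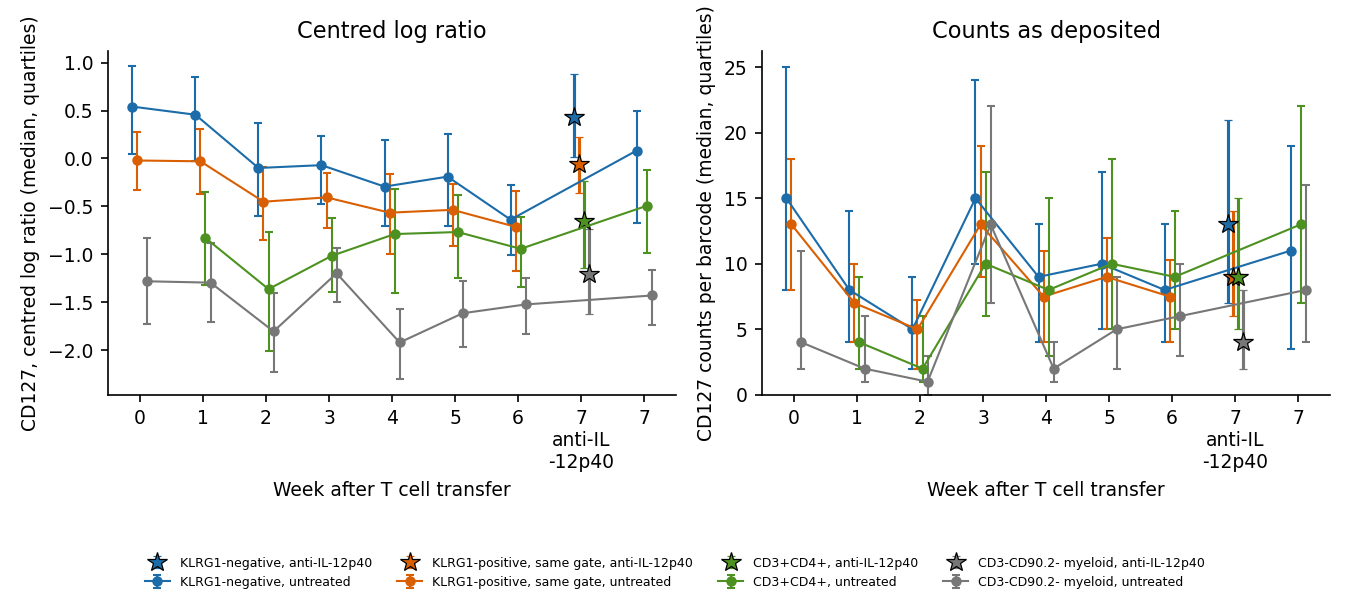
CD127 by week in members, KLRG1-positive cells of the same gate, CD3+CD4+ cells and CD3-negative, CD90.2-negative myeloid cells, as centred log ratio (left) and as counts per barcode (right). Points are medians and bars are quartiles, stars mark the anti-IL-12p40 library, and populations under 50 cells are not drawn. Members lie above myeloid cells in every library on both scales.

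Within the members, CD127 was broad. The share of members above the mixture threshold of -0.867 was 96.5%, 95.3%, 83.7%, 90.5%, 79.4%, 79.3%, 65.0% and 80.3% from week 0 to week 7. This threshold is loose, because both components of the CD127 distribution lay 1.56 spreads apart by Ashman's D, below the value of 2 taken as separable. Weeks 0 and 1 had the highest shares and week 6 the lowest. The median CLR was 0.54, 0.46, -0.10, -0.07, -0.29, -0.19, -0.64 and 0.08 over the same weeks, with a rank correlation of -0.595 with week (exact permutation p = 0.132, adjusted p = 0.154) and an r of -0.692 (exact permutation p = 0.0572, adjusted p = 0.0667). Without weeks 0 and 7 Spearman's coefficient was -0.886 (exact p = 0.0333) and r was -0.894 (exact p = 0.0139). Without week 7 alone, named because this omission passed, the rank correlation was -0.929 (adjusted exact permutation p = 0.0287). With no centring the rank correlation was -0.0241, so no trend was seen in uncentred counts. These counts also carry depth. At weeks 0 to 3 members had median totals of 1044, 511.5, 531 and 970 counts, and CD127 medians of 15, 8, 5 and 15. After thinning cells to 200 counts, the median CLR was 0.157, 0.152, -0.280, -0.173, -0.379, -0.282, -0.637 and -0.0860 from week 0 to week 7. The uncentred counts therefore cannot decide on a trend in CD127 itself.

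At week 7 the median CD127 count was 13 in treated members (quartiles 7 and 21) and 11 in untreated members (quartiles 3.5 and 19). The share above the threshold was 94.7% of treated members and 80.3% of untreated members (exact 95% intervals 92.9% to 96.1%, and 69.1% to 88.8%). Treated members stood near weeks 0 and 1 by this share and by the median CLR, which was 0.43 in the treated library and 0.08 in the untreated one. After thinning to 200 counts, members averaged 3.84 CD127 counts in the treated library and 3.52 in the untreated one.

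CD103, the integrin alpha chain that holds lymphocytes to epithelial E-cadherin, was rarer on members than on their KLRG1-positive neighbours. Cells above its threshold of 0.149 made up 4.39%, 4.26%, 4.45%, 10.2%, 17.5%, 10.98%, 7.77% and 21.1% of members from week 0 to week 7. Among KLRG1-positive cells they made up 36.0%, 27.2%, 23.0%, 25.7%, 46.2%, 52.6%, 23.2% and 28.6% over the same weeks. Members were lower in all 8 untreated libraries. In 7 libraries with at least 50 cells of both kinds the shares differed by -24.9 ± 9.66 percentage points (SD; two-sided exact sign-flip permutation p = 0.0156, the smallest possible, not adjusted), a comparison chosen after the values were seen. The median CLR was lower in members by 0.39 ± 0.32 (exact permutation p = 0.0312, adjusted p = 0.0417), in 6 of 7 libraries. With no centring the difference was -0.63 (adjusted exact permutation p = 0.0714), and leaving out any 1 of weeks 0 to 5 gave an adjusted exact permutation p of 0.0833.

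**Figure D4:**
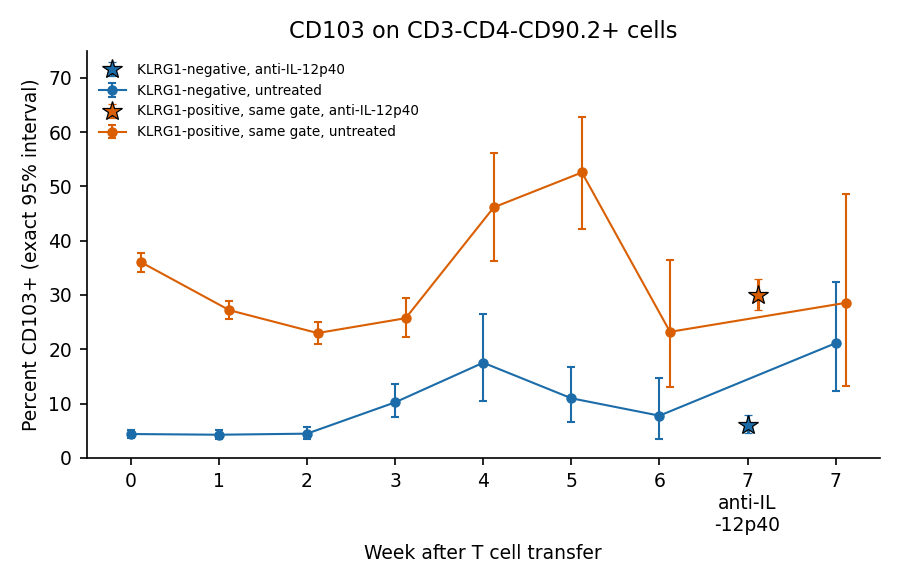
Share of CD103-positive cells among members and among KLRG1-positive cells of the same gate by week, in percent, with exact 95% binomial intervals. Members lie below KLRG1-positive cells in every library, including the anti-IL-12p40 library (stars), at 6.05% and 30.0%.

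The CD103-positive members were few, from 8 cells at week 6 to 147 at week 0. At week 0 they had a median of 36 CD103 counts, and the other members had 3. Their median CD127 count was 10.5 in the treated library, and 17, 7.5, 5, 16, 9, 9.5, 18 and 12 from week 0 to week 7. The other members had 13 in the treated library, and 14, 8, 5, 15, 8.5, 10, 7 and 11. The medians differed by at most 1 count in 6 libraries, and the widest gap, at week 6, rests on 8 cells with a median total of 1516 counts, against 746. The median CD90.2 count was lower on CD103-positive members in 7 of the 9 libraries. At week 5 they had 177 CD90.2 counts, against 547 on CD103-negative members, and at week 6 they had 1175, against 386. These counts carry depth. The median totals at week 5 were 369, against 779.5, and at week 6 1516, against 746. At week 3 the total was higher (1103, against 959) and CD90.2 lower (541, against 561). A CD90.2 difference apart from depth was not tested. The trend of the median CD103 CLR with week had a rank correlation of 0.595 (exact permutation p = 0.132, adjusted p = 0.154) and an r of 0.691 (exact permutation p = 0.0543, adjusted p = 0.0667), and without weeks 0 and 7 Spearman's coefficient was 0.60 and r was 0.685 (exact p = 0.242 and 0.125).

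At week 7 CD103-positive cells were 6.05% of treated members (52 of 860, interval 4.55% to 7.85%) and 21.1% of untreated members (15 of 71, interval 12.3% to 32.4%). The intervals do not overlap, but they cover counting error only and not the spread between pools. With no replicate library on either side, a difference due to treatment was not tested. The treated share lay between those of weeks 2 and 6. Among KLRG1-positive cells the shares were 30.0% in the treated library and 28.6% in the untreated one. By both proteins together, CD127-positive, CD103-negative cells were 89.3% of treated members and 66.2% of untreated ones. That combination held 92.4% of members at week 0 and 58.3% at week 6, where cells negative for both were 34.0%. Members with both proteins were 5.35% in the treated library and 14.1% in the untreated one (46 and 10 cells).

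Ly-6C and Ly-6G, proteins of monocytes and neutrophils, stood on members at nearly the same counts as on T cells of the same library. Ly-6C had medians of 96, 65, 159, 266, 144, 134.5, 183 and 95 counts in members from week 0 to week 7, and 60 in the treated library. CD3+CD4+ cells had 64, 159, 252, 145, 128, 175 and 102 from week 1 to week 7, and 61 in the treated library. With no centring, members and T cells differed by 0.01 for Ly-6C (adjusted exact permutation p = 0.643) and by -0.03 for Ly-6G (adjusted exact permutation p = 0.75). On the CLR scale the same differences were 0.63 and 0.64 (adjusted exact permutation p = 0.0227 for both). Between libraries these counts varied more than between members and T cells of 1 library.

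Ly-6G had medians of 2, 1, 1, 14, 7, 7, 8 and 8 counts in members from week 0 to week 7, and 2 in the treated library. CD3+CD4+ cells had 1, 1, 14, 7, 8, 7 and 10 from week 1 to week 7, and 2 in the treated library. The trend in members had a rank correlation of 0.738 (exact permutation p = 0.0458, adjusted p = 0.107) and an r of 0.792 (exact permutation p = 0.0235, adjusted p = 0.0482), and without weeks 0 and 7 Spearman's coefficient was 0.371 (exact p = 0.497) and r was 0.513 (exact p = 0.308). CD11b+Ly-6G+ cells, the neutrophil phenotype, were 0.490% of the treated library and 5.42% of the untreated library of week 7, and 0.747% of the library of week 0. Their part in the Ly-6G counts on members was not tested. For Ly-6C, the rank correlation was -0.333 (exact permutation p = 0.428, adjusted p = 0.428) and r was -0.357 (exact permutation p = 0.414, adjusted p = 0.414), and without weeks 0 and 7 Spearman's coefficient was -0.314 and r was -0.423 (exact p = 0.564 and 0.45). At week 2, 64.8% of members lay above the Ly-6C threshold, against at most 2.74% in any other library. That threshold is also loose (Ashman's D 1.82), and the share does not follow the counts. CD3+CD4+ cells of week 2 had the same median of 159 counts and 1.88% above it, and members of week 3 had 266 counts and 2.74% above it, so no difference in Ly-6C is read from these shares.

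**Figure D5:**
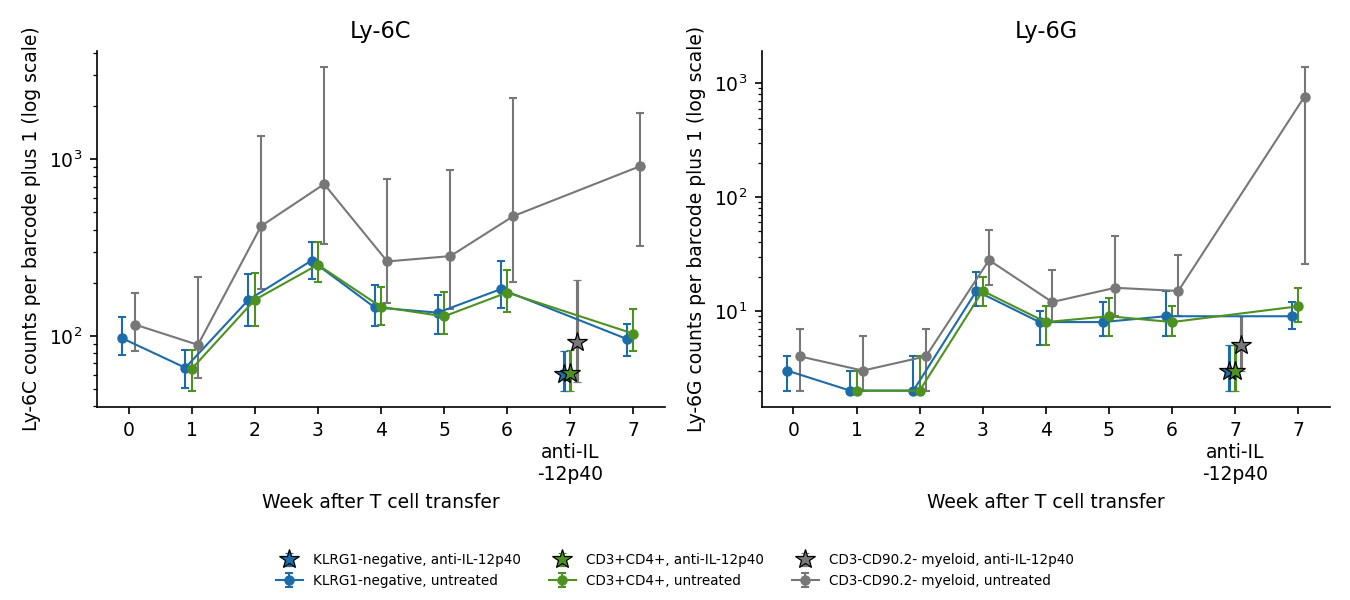
Median counts plus 1 of Ly-6C and Ly-6G, on log axes, with quartiles, in members and comparison populations by week. The curves of members and CD3+CD4+ cells run together in every library where both are drawn, and the star marks the anti-IL-12p40 library.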

How the data were processed

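For 9 libraries of 1 pool each, the authors deposited raw counts of 11 antibodies per barcode. Cell Ranger 6.0.2, the build mm10 and Seurat 4.1.1 are listed, with no role, in the submitters' processing notes. The selection of barcodes before deposit is not given in these sources. Per the labels' protocols about 16000 cells were loaded per sample, and 3 libraries (weeks 0, 2 and 4) hold more barcodes than that (16910, 21229 and 18103), so some barcodes of a share's total may not be cells. Barcodes under 50 counts, or in the top 1% of their library, were left out, which kept 130442 of 131917. No doublet caller was run. The 95% intervals of shares are exact (Clopper-Pearson) and cover counting error alone.

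Untreated libraries were tested by exact permutation (40320 orderings for 8 libraries) for 7 trends, and by exact sign-flip tests of medians for 16 differences, both two-sided with Benjamini-Hochberg adjustment at 0.05. Trend p-values measure how values line up with week over libraries of 1 pool each. Sign-flip p-values measure how consistent the within-library differences are across libraries. Neither measures the spread between pools of a week. Thresholds of ungated proteins come from a 2-component Gaussian mixture fitted on 2000 cells per library. A treated-to-untreated ratio counted as large at 1.5 or more with separate intervals and a treated share outside untreated weeks 5 to 7. All 11 antibodies were eligible to be named. Members, lists and tests were chosen with earlier results of these data known. Alternatives were other gates, filters, depths, centrings, Pearson's r and each library left out. Applying the gate alternatives to protein levels, and comparing CD103-positive shares, were chosen after seeing the data. Python 3.11.15, numpy 2.4.6, scipy 1.17.1 and scikit-learn 1.9.0 were used, and the tests were tested on simulated data.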

Additional observations from a re-analysis of the deposited data

How the results depend on the processing

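No paired analysis was possible because each group has 1 library and the labels carry no replicate numbers to pair groups by, while the 16 differences between populations are paired within libraries by design. The trend of the members' share of all barcodes, with a rank correlation of -0.857, passed 0.05 after thinning to 200 counts (-0.929), with thresholds fitted in each library (-0.881) and by Pearson's r (-0.870). The share of CD3-negative barcodes passed with thresholds per library (-0.929) and by r (-0.869), and the share of the gate by r (0.784). With 1 library left out these ranged from -1.0 to -0.786, from -0.893 to -0.679 and from 0.536 to 0.893, and both shares passed without week 4 or week 7. Of 4 protein trends, 0 passed by rank correlation, with 1 unadjusted p under 0.05 (Ly-6G). By r 1 passed, with members at least 0.25 inside every cut 1, and with 1 library left out 0 to 1 (CD127, without week 7). Of 16 differences 12 passed, 4 with no centring, 7 centred on the ungated proteins, and 11 to 13 with 1 library left out. The treated-to-untreated ratio was 26.3 with thresholds per library (110 and 4 members) and lost its call. In that alternative CD64 at week 7 was not separable (Ashman's D 0.291 treated, 0.106 untreated). Nor was CD3 at weeks 0 and 1 (1.57 and 0.679) or KLRG1 at weeks 4 and 6 (1.81 and 1.38). Its CD3 cuts at weeks 0 and 1 were -1.66 and -1.29, against -0.155 in the rule. The members' share at week 0 was then 5.19%, so its members and CD3-negative total are not those of the rule.

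These directions reversed, and the cause was not tested. The Ly-6C trend was 0.0476 (thinned gates), 0.167 (no centring) and 0.0714 (inside the cuts). Differences from CD3-CD4+CD90.2+ cells became 0.0585 for CD103 (thinned gates, against -0.161 for thinned levels), and with no centring -0.199 for CD127, -0.0129 for Ly-6C and -0.0588 for Ly-6G. From CD3+CD4+ cells they became, for CD103, -0.140 with no centring and -0.151 centred on the ungated proteins, and for Ly-6G -0.0287 and -0.00178. From myeloid cells Ly-6C became -0.0332 (thinned gates), -0.0153 (no upper limit), -0.872 (no centring), -0.121 (ungated centring), -0.0595 (thinned levels) and -0.232 (mean over cells), and ranged from -0.0426 (without week 0) to 0.135 with 1 library left out, with -0.0212 without week 1. Ly-6G became 0.320 (thresholds per library), and 0.289 (inside the cuts), and ranged from -0.141 to 0.291 (without week 7), and CD103 ranged from -0.223 to 0.101 (without week 0). The number of members limits weeks 4 to 7, where 71 to 164 cells set each value.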
